A study of Homo sapiens with 5 samples.

Results

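The genes of the 3 D-type cyclins (CCND1, CCND2 and CCND3) and of the kinases they activate (CDK4 and CDK6) were examined for SMAD2 summits in T47D cells, an established estrogen receptor-positive line of the luminal breast cancer type. A member summit was any listed position of the hg19 build within 50 kb of the span of 1 of these 5 genes. The 4 libraries held 293 such summits of 233945 in all. SMAD2 was immunoprecipitated with the antibody EP567Y, and its DNA was sequenced. The activin group (2 libraries) received activin A, a TGF-β family ligand that activates SMAD2, at 50 ng/ml for 1.5 h. The palbociclib group (2 libraries) received the CDK4/6 inhibitor palbociclib at 1 µM for 24 h together with the same activin dose and time. All 4 libraries therefore come from activin-treated cells, and an input library of T47D cells served the authors' peak calling. Summit lists hold no expression values, so the cell line's identity was not checked.

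A D-type cyclin binds CDK4 or CDK6, and the active kinase phosphorylates the retinoblastoma protein RB, which releases E2F factors and starts entry into S phase. Palbociclib blocks this kinase step. CCND1 is a known estrogen-induced gene and a frequent driver in luminal breast cancer, while activin and TGF-β are known to slow the cycle of epithelial cells. The comparison asks whether SMAD2 is found at other places around these genes once the kinases they encode are inhibited.

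SMAD2 summits were dense at CCND1, CDK4 and CCND3, and much closer to the average density of the genome at CDK6 and CCND2. The CCND1 window (115 kb) held 18 summits in activin replicate 1, 22 in activin replicate 2, 27 in palbociclib replicate 1 and 29 in palbociclib replicate 2. In the same order, the CDK4 window (106 kb) held 15 and 18, and then 25 and 21. The CCND3 window (215 kb) held 18 and 20, and then 21 and 22. These 3 windows lay far above the average density. The genome was also tiled into windows of each locus' length. Of the tiled windows that held a summit, 1.06% had at least as many as CCND1 over the 4 libraries, 1.72% as CDK4 and 4.85% as CCND3. For CDK6 this share was 33.4%. In activin replicate 1 the density was 15.7 summits per 100 kb at CCND1, 14.2 at CDK4 and 8.37 at CCND3, beside 1.75 over the genome. Activin replicate 2 gave the same order at 19.1, 17.0 and 9.30, with 1.84 over the genome. The palbociclib libraries had 23.5 and 25.2 at CCND1, 23.6 and 19.8 at CDK4, and 9.77 and 10.2 at CCND3, beside 2.14 and 2.22 over the genome. The order of CCND1 and CDK4 turned in palbociclib replicate 1, so these 2 loci did not differ beyond the spread between libraries. The CDK6 window (330 kb) held 3 and 6 summits with activin and 10 and 9 with palbociclib. That is 0.909 and 1.82 per 100 kb with activin, below the genome's density in the same libraries. With palbociclib it is 3.03 and 2.73, above the genome's density. The CCND2 window (133 kb) held 2 and 2, and then 2 and 3, or 1.50, 1.50, 1.50 and 2.26 per 100 kb. Each window also contains neighbouring genes, and a summit in it was not assigned to any gene.

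**Figure D1:**
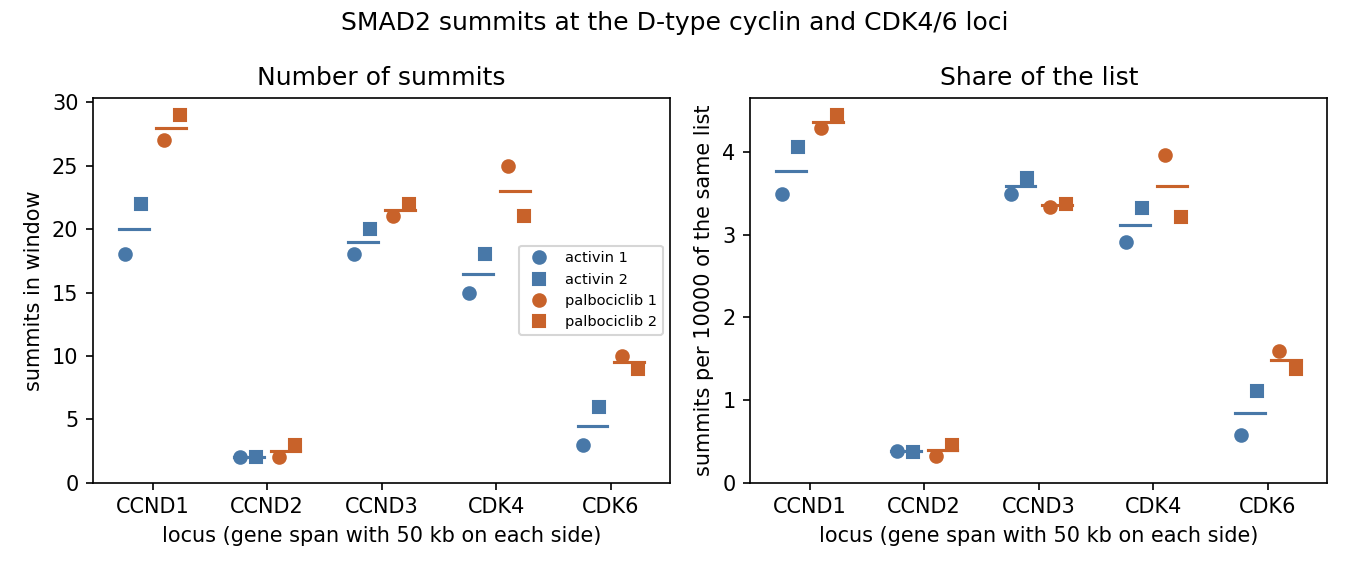
Summits in each window by library (left, number of summits) and per 10000 summits of the same list (right); each point is 1 library, blue for activin and orange for palbociclib, and bars are means of 2 libraries. Both palbociclib libraries lie above both activin libraries at CCND1, CCND3, CDK4 and CDK6 on the left. On the right the groups overlap at CDK4 and the order turns at CCND3.

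Both palbociclib libraries held more summits than both activin libraries at 4 of the 5 loci, as they did over the whole lists. At CCND1 the means were 20.0 ± 2.83 with activin and 28.0 ± 1.41 with palbociclib (SD, n = 2 each), a 1.40-fold ratio. At CDK4 the means were 16.5 ± 2.12 and 23 ± 2.83 (1.39-fold), and at CDK6 4.5 ± 2.12 and 9.5 ± 0.707 (2.11-fold). At CCND3 they were 19.0 ± 1.41 and 21.5 ± 0.707 (1.13-fold), and at CCND2 2.0 ± 0 and 2.5 ± 0.707 (1.25-fold). The groups did not overlap at CCND1, CCND3, CDK4 and CDK6. Among all tiled windows of the same length that held a summit, both palbociclib counts exceeded both activin counts in 18.5% for CCND1, 23.4% for CCND3, 18.1% for CDK4 and 27.8% for CDK6. Windows with more summits separate more often. Among tiled windows with at least as many summits as the locus, those shares were 47.2% for CCND1, 53.1% for CCND3, 46.4% for CDK4 and 46.3% for CDK6. At CCND2, where the groups overlapped, the same 2 shares were 19.4% and 30.1%. Separate groups are therefore common in windows with at least as many summits as these loci. For CDK6, which was not dense, that set took in 33.4% of the tiled windows of its length. The exact two-sided permutation test gave p = 0.333 at each of these 4 loci, the smallest that 2 against 2 libraries allow, and p = 1.0 at CCND2. After Benjamini-Hochberg adjustment over the 5 loci the values were 0.417 and 1.0. The labels do not say whether replicates were separate cultures, so this spread may be technical.

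The palbociclib lists were 1.21-fold as long as the activin lists, so the same counts were also taken per 10000 summits of each list. CDK6 then had 0.582 and 1.11 with activin and 1.59 and 1.38 with palbociclib, a 1.76-fold ratio with separate groups. On this scale both palbociclib libraries lay above both activin libraries in 17.3% of all tiled windows of that length and in 20.0% of those with at least as many summits. CCND1 had 3.49 and 4.06, and then 4.29 and 4.45 (1.16-fold), again with separate groups, beside 14.6% and 16.1% of windows. At CDK4 the values were 2.91 and 3.32, and then 3.97 and 3.22, and the groups overlapped. At CCND3 the order reversed, with 3.49 and 3.69 for activin above 3.34 and 3.37 for palbociclib, an order found in 21.2% of all such windows and 27.7% of those as dense. The excess at CCND3 was thus no larger than the difference in list length. Over the 5 loci together the numbers were 56 and 68, and then 85 and 84, or 1.36-fold. Per 10000 summits they were 11.7 ± 1.2 and 13.2 ± 0.44 (SD, n = 2 each), or 1.13-fold.

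**Figure D2:**
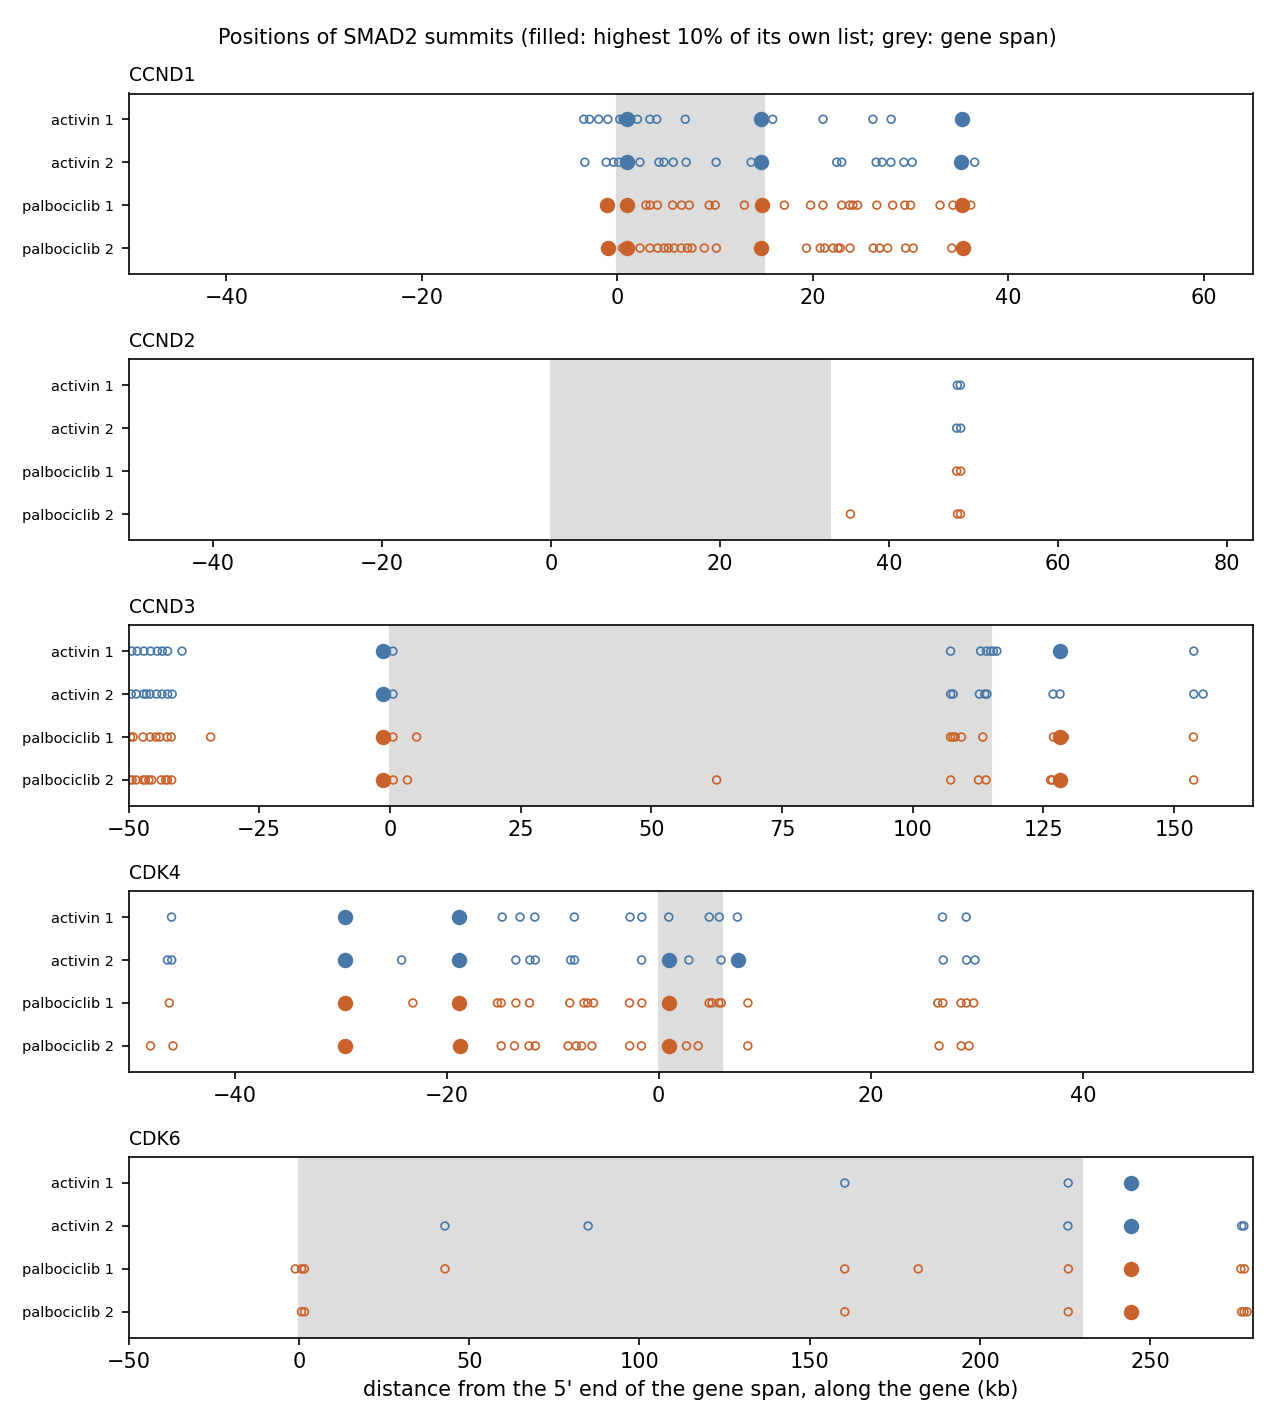
Positions of the summits along each gene, as distance in kb from the 5′ end of its span (grey), 1 row per library; filled points are in the highest 10% of their own list. CCND1 is covered from its 5′ end to about 35 kb along, the CCND2 span is empty, and the CDK6 5′ end has summits in the palbociclib rows only.

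CCND1, which encodes cyclin D1, held its strongest summit near the 5′ end of the gene. The 4 libraries placed it at positions 69455972, 69455976, 69455976 and 69455975 of chromosome 11 (activin replicates 1 and 2, then palbociclib replicates 1 and 2), within 4 bp of each other. Only 76 of the 23476 regions with a summit in all libraries (0.324%) were as narrow. Regions here are summits of the 4 lists chained at gaps of up to 200 bp. The site lies 0.97 kb inside the span, whose ends are known to 1 kb. Its scores, read as the −log10 q of the authors' peak caller, were 151, 242, 405 and 305. It ranked 936, 276, 166 and 303 in the lists. It was thus in the highest 1.82% of every list. Scores and ranks describe each list on its own, and no difference between lists is read from them.

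Strong summits also marked the far end of CCND1 and a place downstream. The region at 69469712 to 69469781, 0.22 kb inside the 3′ end of the span, scored 105, 139, 233 and 201 in the same order of libraries. The region at 69490179 to 69490326, 20.2 kb beyond the 3′ end, scored 102, 112, 152 and 123. LTO1 and FGF19, which encodes a fibroblast growth factor, are neighbours on that side in RefSeq. Just upstream, 0.96 kb before the span, a region at 69453868 to 69454040 scored 31.7, 43.6, 93.1 and 94.2. All 96 summits of the CCND1 window fell between 69451580 and 69491572, a stretch of 40.0 kb. No library had a summit in the 46.6 kb from the upstream edge of the window to the first of them. Weak summits filled the gene between the strong ones. The region at 69459037 to 69459269, for example, was present in all libraries but lay as low as the 98.8% rank of a list.

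The window of CCND1 held 5 regions with a summit in both libraries of a treatment and in neither library of the other, and each ranked below the median of at least 1 of its lists. The palbociclib-only regions numbered 3 of 51 (5.88%, beside 5.29% of the regions of the whole series). The one at 69461536 to 69461588 scored 7.11 and 22.7, and the nearest activin summit was 375 bp away. The one at 69489231 to 69489354 scored 5.7 and 8.83, with an activin summit at 825 bp. The activin-only regions numbered 2 of 51 (3.92%, beside 2.22%), both near the 5′ end. The one at 69451580 to 69451679 scored 6.96 and 34.0, and the nearest palbociclib summit lay 2321 bp away. The one at 69455150 to 69455261 scored 6.5 and 10.7 and had a palbociclib summit 287 bp away. A file holds 1 position for an enriched stretch of unknown width, so a missing summit does not show that SMAD2 was missing.

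CCND2, which encodes cyclin D2, had no summit in its span in any of the 4 libraries. Its 33-kb span sits in a stretch of 85.4 kb without a listed summit, from the upstream edge of the window at 4332000 to 4417416 on chromosome 12. The nearest summits shared by the libraries lay 15.0 and 15.4 kb beyond the 3′ end. The region at 4429988 to 4430091 scored 9.58, 13.5, 20.3 and 20.1, and that at 4430422 to 4430473 scored 20.5, 16.1, 29.3 and 50.4. TIGAR, which encodes a regulator of glycolysis, is the next gene on that side in RefSeq. One further summit, at 4417416, was listed in palbociclib replicate 2 alone with a score of 4.8. None of the 9 summits was in the highest 10% of its list. In all, 46.9% of the tiled windows of this length that held a summit had at least as many, so the window's total was ordinary.

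CCND3, which encodes cyclin D3, had summits at both ends of its span and almost none between. The span covers 115 kb, and its 2 longest empty stretches measured 57.4 and 44.7 kb. They were separated by 1 summit at 41954509 on chromosome 6, which palbociclib replicate 2 listed with a score of 4.8. Of the 24 summits in the span, 17 lay within 8 kb of its 3′ end. The strongest region of the window, at 42018370 to 42018409, lay 1.37 kb upstream of the span and scored 97.1, 92.1, 135 and 131. TAF8, which encodes a subunit of the general transcription factor TFIID, is the neighbour on that side. A weaker region inside the 5′ end, at 42016372 to 42016432, scored 11.8, 19.9, 17.7 and 10.3. Both were found in all libraries, so each treatment had summits near the 5′ end of CCND3. Only the weaker region lies inside the span, and the stronger one was not assigned to CCND3 or TAF8.

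Toward the other end, the region at 41909730 to 41909769 scored 19.9, 42.0, 52.1 and 47.04, 7.73 kb inside the 3′ end. RefSeq lists 3 starts for CCND3, of which the others lie toward that end of the gene, but the summits could not be set against them across builds. Beyond the 3′ end, the region at 41888817 to 41888842 scored 70.3, 55.2, 97.8 and 97.6. The region at 41863222 to 41863304 scored 54.8, 21.6, 34.0 and 64.5. BYSL, MED20 and USP49 are the neighbours there. A dense cluster of mostly weak summits made up 36 of the 81 summits of the window and lay over 35 kb upstream. The CCND3 window had 0 group-specific regions of either kind among its 39 regions, and 9 of the 39 (23.1%) were found in all libraries. Over the series, 5.29% of regions were palbociclib-only, 2.22% activin-only and 20.4% found in all libraries. At such shares few group-specific regions would fall among 39, so the 0 is not read as a trait of CCND3.

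CDK4 was marked at its 5′ end in every library. The summits lay at 58146046, 58146051, 58146050 and 58146039 on chromosome 12, within 12 bp, and 0.95 kb inside the span. Their scores were 56.3, 89.1, 108 and 83.2, in the highest 12.1% of every list. Of the regions found in all libraries, 2.70% were as narrow. A second region, 1.59 kb upstream at 58148590 to 58148630, scored 3.84 and 14.6 with activin and 29.2 and 39.0 with palbociclib. The strongest summits of the window lay farther off, on the side of MARCHF9, CYP27B1 (the enzyme that activates vitamin D) and METTL1 (a tRNA methyltransferase). The region at 58165751 to 58165856, 18.8 kb upstream of CDK4, scored 172, 127, 190 and 184. The region at 58176599 to 58176614, 29.6 kb upstream, scored 108, 149, 230 and 219. Both lay in the highest 4.07% of every list.

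Just past the 3′ end of CDK4, the 2 treatments had summits at different positions, each in the highest 14.4% of its list. Activin replicates 1 and 2 had summits at 58139580 and 58139527, 1.42 kb beyond the span, with scores of 47.8 and 69.9. Palbociclib replicates 1 and 2 had none there but had summits at 58138587 and 58138604, with scores of 77.0 and 62.9. These positions are at least 923 bp farther from the gene. The 2 libraries of a treatment agreed within 53 bp (activin) and 17 bp (palbociclib). They form 1 activin-only and 1 palbociclib-only region by the rule, although each treatment had a summit in the area. Over the series, 2.22% of regions were activin-only and 5.29% palbociclib-only. How often 2 such regions lie side by side was not counted, so whether this shift is unusual is not known. TSPAN31, which encodes a tetraspanin, is the neighbour on that side. The other 3 palbociclib-only regions of the window were weak, such as that at 58153147 to 58153298 with scores of 7.92 and 5.9. Its nearest activin summit lay 1643 bp away.

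CDK6 showed summits at its 5′ end with palbociclib and none with activin. Palbociclib replicates 1 and 2 had summits at 92463190 and 92463227 on chromosome 7, 0.77 kb inside the span, with scores of 5.98 and 20.1. They had a second pair at 92462375 and 92462349, with scores of 4.21 and 8.17. Palbociclib replicate 1 had another at 92465062 with a score of 4.89. The nearest activin summits lay 42069 and 41228 bp from these 2 regions. Within 2 kb of the 5′ end the libraries thus had 0 and 0 summits with activin, and 3 and 2 with palbociclib. Of all tiled windows of 4 kb that held a summit, 5.41% had one in both palbociclib libraries and none in either activin library. The scores are low: the summits lay between the 27.1% and the 86.1% rank of their lists. Read depth is unknown, and a lack of SMAD2 there with activin cannot be told apart from a signal just under the authors' threshold.

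The strongest CDK6 summits were shared by the treatments and lay at the other end of the window. The region at 92219591 to 92219651, 14.4 kb beyond the 3′ end and on the side of FAM133B, scored 99.6, 79.3, 145 and 90.5. Inside the span, the region at 92238073 to 92238214 scored 11.9, 20.9, 45.2 and 58.7, and lay 4.07 kb from the 3′ end. The span of 230 kb otherwise held few summits, with an empty stretch of 75.3 kb. The regions at 92303708 to 92303731 and at 92421103 to 92421121 were found in 3 and 2 libraries. Per 100 kb, the span held 0.870 and 1.30 summits with activin and 2.61 and 1.74 with palbociclib. Over the genome these libraries held 1.75 and 1.84, and 2.14 and 2.22.

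The 5′ ends of CDK4, CCND3 and CDK6 are shown here because RefSeq's promoter table (GRCh38.p14) held only these 3 of the 5 genes, with 6 starts. It had no entry for CCND1, which also had summits near its 5′ end, or for CCND2. Within 2 kb of the 5′ end of the hg19 span, all libraries listed summits at CDK4 and CCND3. At CDK6 only the palbociclib libraries did. The 250 bases before 1 start of each gene follow, 5′ to 3′ on the minus strand, and capitals mark the words GGCGC and GGCCG on either strand, which are GC-rich SMAD sites. The CDK4 sequence is chr12:57752311-57752560, that of CCND3 (the upstream start) is chr6:42048689-42048938, and that of CDK6 (the upstream of 2 starts) is chr7:92836574-92836823. These positions belong to GRCh38 and are not set against the hg19 summits.
CDK4: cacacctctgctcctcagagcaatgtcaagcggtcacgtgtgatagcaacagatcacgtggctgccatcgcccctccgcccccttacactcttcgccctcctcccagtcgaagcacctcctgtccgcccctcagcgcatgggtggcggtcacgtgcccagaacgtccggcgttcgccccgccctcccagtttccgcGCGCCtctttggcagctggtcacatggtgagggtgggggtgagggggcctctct
CCND3: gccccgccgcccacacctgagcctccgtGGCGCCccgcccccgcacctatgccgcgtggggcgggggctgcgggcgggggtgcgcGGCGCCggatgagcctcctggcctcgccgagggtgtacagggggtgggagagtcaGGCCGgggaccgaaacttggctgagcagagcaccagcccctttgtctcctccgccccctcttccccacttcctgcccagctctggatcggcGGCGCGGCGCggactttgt
CDK6: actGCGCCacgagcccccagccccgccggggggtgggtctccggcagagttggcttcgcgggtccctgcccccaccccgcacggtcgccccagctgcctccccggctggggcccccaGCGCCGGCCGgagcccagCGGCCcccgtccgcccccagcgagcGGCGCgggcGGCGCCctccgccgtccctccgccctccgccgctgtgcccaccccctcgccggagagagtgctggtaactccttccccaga

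The 3 sequences are rich in G and C, at 65.6% (CDK4), 74.4% (CCND3) and 80.0% (CDK6), beside a median of 58.0% over the 35116 promoters of the table. GGCGC, counted on both strands so that GGCGCC counts 2 times, occurred 1 time before CDK4, 6 times before CCND3 and 5 times before CDK6. At the other 2 starts of CCND3 it occurred 4 and 0 times, and at the other start of CDK6 3 times. It is found in 44.5% of all promoters. GGCCG occurred 0, 1 and 3 times before the printed starts in that order, 4 and 0 times at the other CCND3 starts and 1 time at the other CDK6 start, and 44.7% of all promoters hold it. The SMAD word CAGAC, held by 38.0% of all promoters, was found in none of the 6 starts of CCND3, CDK4 and CDK6. The palindrome GTCTAGAC (0.182%), the AP-1 word TGANTCA (6.57%), the nuclear receptor word AGGTCA (12.1%) and the E2F words TTTGGCGC, TTTCCCGC, TTTCGCGC and TTTGCCGC (2.79% for any) were not found in them either. A match is a description of letters and not a binding site.

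**Figure D3:**
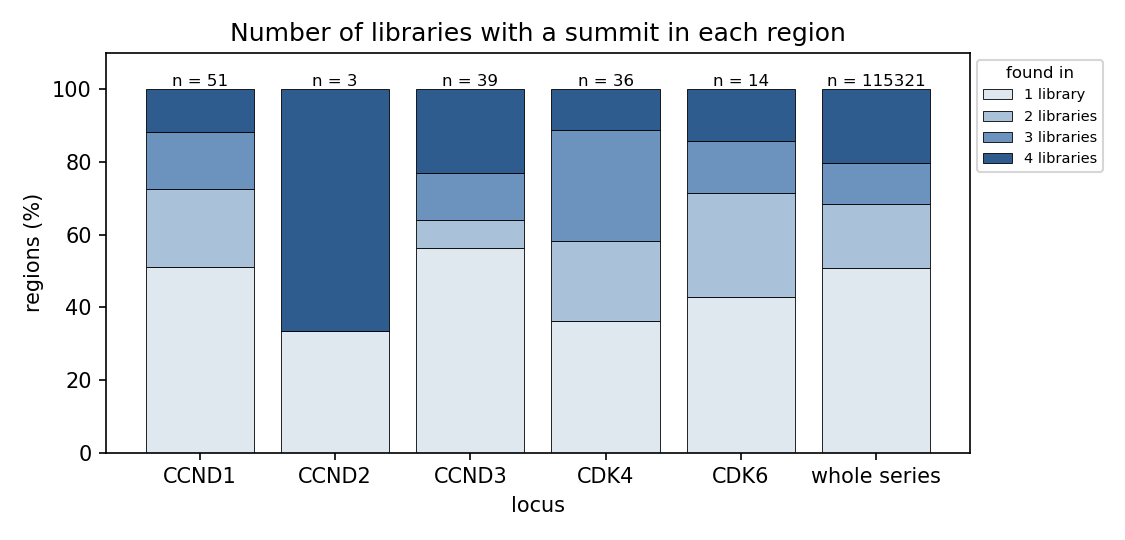
Share of regions (%) found in 1, 2, 3 or 4 libraries at each locus and over the whole series, with the number of regions above each bar. CDK4 has 4 of 36 regions in all libraries and CCND3 has 9 of 39, beside 20.4% over the series.

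Most regions at the 5 loci were not found in every library, as over the rest of the genome. The summits formed 143 regions. Of these, 23 (16.1%) had a summit in all 4 libraries, beside 20.4% of the regions of the whole series. A single library held 68 of them (47.6%, beside 50.8%), of which 22 came from activin and 46 from palbociclib libraries. This split was not taken over the series, where the palbociclib lists were 1.21-fold as long, so it is not read as a trait of these loci. Regions with palbociclib only numbered 9 (6.29%, beside 5.29%) and those with activin only 3 (2.10%, beside 2.22%). Pooled over the loci, these shares lie near those of the series. Without replicates 1 and 2 of activin in turn there were 14 and 20 palbociclib-only regions, and without replicates 1 and 2 of palbociclib 33 and 35. The activin-only count likewise became 13 and 18, and 8 and 9, since 1 library is then enough to make a region specific to its group. By locus, palbociclib-only regions numbered 3 of 51 at CCND1 (5.88%), 4 of 36 at CDK4 (11.1%), 2 of 14 at CDK6 (14.3%), 0 of 39 at CCND3 and 0 of 3 at CCND2, and activin-only regions 2 at CCND1 and 1 at CDK4. In the regions shared by all libraries, the summits spanned a median of 82.0 bp, beside 76.0 bp over the series.

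**Figure D4:**
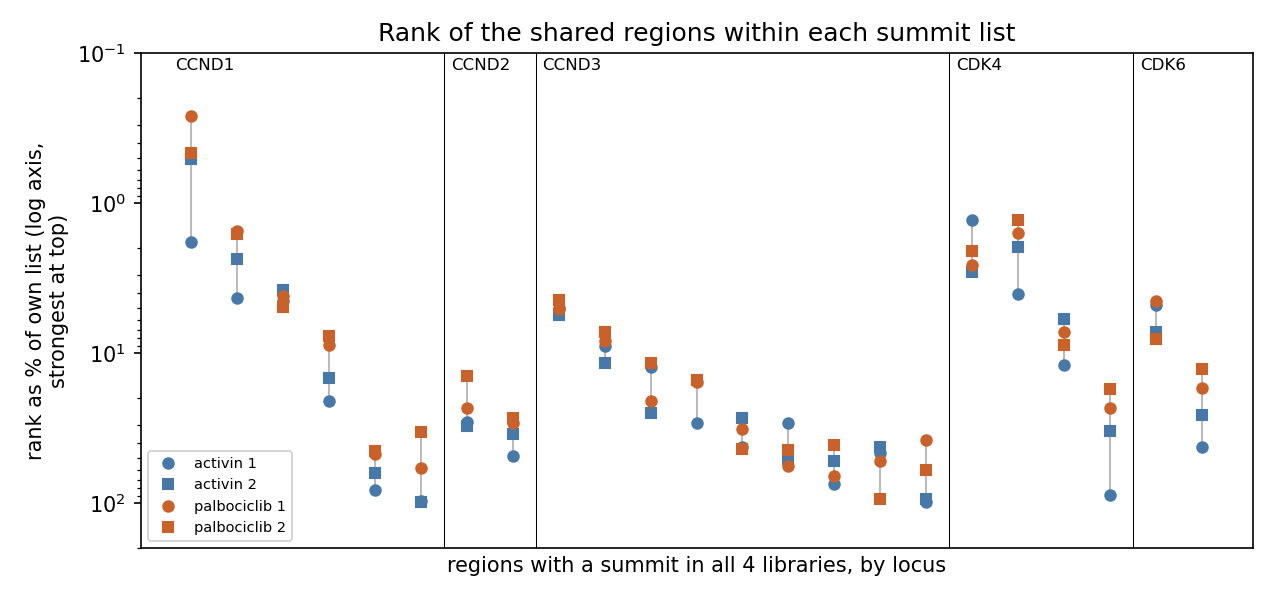
Rank of each region found in all 4 libraries, as a percentage of the library's own list on a log axis with the strongest at the top; points are libraries, grouped by locus. The CCND1 region near the 5′ end, from 0.264% to 1.82%, is the highest in 3 libraries, and in activin replicate 1 a CDK4 region at 1.29% lies above it, while 1 CCND3 and 1 CCND1 region reach beyond 98%.

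Summits of the 5 loci were found again in other libraries at shares whose intervals held the share of the whole list in all but 1 of 12 ordered pairs of libraries, the first one given here. Of the 85 member summits of palbociclib replicate 1, 32 had a summit of activin replicate 1 within 200 bp (37.6%, exact Clopper-Pearson 95% interval 27.4 to 48.8). Of the same summits, 43 had one in activin replicate 2 (50.6%, 39.5 to 61.6). For the whole list these shares were 50.0% and 50.5%. Of the 56 member summits of activin replicate 1, 31 were found in palbociclib replicate 1 (55.4%, 41.5 to 68.7) and 35 in activin replicate 2 (62.5%, 48.5 to 75.1), beside 61.2% and 58.0% of its whole list. In the highest 10% of their own lists were 8 of the 56 and 9 of the 68 activin summits, and 10 of the 85 and 10 of the 84 palbociclib summits. Activin replicate 1 had the shortest list and the fewest summits at these loci. The intervals cover counting error only, and members of 1 library are not replicates.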

How the data were processed

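SMAD2 ChIP-seq was analysed in 4 libraries of T47D cells, 2 with activin and 2 with palbociclib and activin. The build was hg19, and the tools named are MACS2 2.0.9, Bowtie 1.1.0 and Picard, per the submitters' processing notes. Parameters were not stated in the sources used here. The authors deposited 1 list of peak summits per library, called in each library by itself, with a score read as −log10 q because the lowest was 1.31 and −log10 of 0.05 is 1.30. Lists held 51535 and 54243 summits with activin and 62960 and 65207 with palbociclib on chromosomes 1 to 22 and X. Lists give no read numbers, so depth is unknown and no score of a single summit is compared between lists.

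Positions were made 1-based. Gene spans, known to 1 kb, were widened by 50 kb. Summits were chained at gaps of up to 200 bp. Differences in mean counts were tested by an exact permutation test over libraries. Ratios are given as fold in the results above and on the log2 scale in the section on processing below. The background from tiled windows was chosen after seeing the data. The strands of CCND1 and CCND2 are textbook knowledge, and those of the other genes are RefSeq's. Named regions were the up to 3 best-ranked regions found in all libraries of a locus, the strongest summit of each library, the region nearest the 5′ end within 2 kb and the up to 2 best-ranked group-specific regions in each direction; others named were chosen after their values were seen. Members and lists were chosen with earlier results of these data known. The chaining was tested on simulated data with known patterns. Other pathway genes and protein identities were not analysed here. Python 3.11.15, numpy 2.4.6, pandas 2.3.3, scipy 1.17.1 and matplotlib 3.10.9 were used.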

Additional observations from a re-analysis of the deposited data

How the results depend on the processing

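The log2 ratio of palbociclib to activin summits kept its direction at CDK6 (1.08) and over the 5 loci together (0.45) under all 11 alternatives each. For CDK6 the highest 10000 summits left means of only 1.0 with activin and 1.5 with palbociclib. Among each list's highest 10000 summits the ratio was 0 at CCND1 (0.49 in all) and 0 at CDK4 (0.48 in all); the lowest score kept then was 34.4 and 33.2 with activin and 50.7 and 46.8 with palbociclib. At CCND2 (0.32) it was 0 with a score of at least 5. At CCND3 (0.18) it reversed to −0.12 with lists of equal length and to −0.10 per 10000 summits. Without each library in turn it ranged from 0.35 to 0.64 at CCND1, 0 to 0.58 at CCND2, 0.10 to 0.26 at CCND3, 0.35 to 0.62 at CDK4, 0.66 to 1.66 at CDK6 and 0.31 to 0.59 together. At CDK6 it was 1.66 without activin replicate 2 and 0.66 without activin replicate 1. Groups that do not overlap cannot turn when a library is left out, nor when libraries are compared in pairs by replicate. For CCND2 the highest 10000 summits and the span without flanks gave no value. Regions in all libraries (23) numbered 9 in the highest 10000 summits and 8 without flanks. Palbociclib-only regions (9) numbered 1 and 3 there, and activin-only regions (3) 1 and 1; the latter were 5 at equal lengths and 7 with a gap of 100 bp. Without each library they ranged from 14 to 35 and from 8 to 18. Same-numbered libraries showed no sign of pairing (correlation of rank deviations −0.0519). With the replicate block the log2 ratio was 0.49 at CCND1, 0.29 at CCND2, 0.18 at CCND3, 0.48 at CDK4, 1.16 at CDK6 and 0.45 together, and the mean counts were 43.5 palbociclib-only and 22.5 activin-only regions, since each pair has 1 library a group. Requiring the other treatment's nearest summit to lie over 1 kb away, chosen after seeing the data, left 3 and 1 regions. The unknown read depth limits every count.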
